A study of Mus musculus with 4 samples.

Results

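Interferon-inducible and MHC class I genes were examined in ventricular RNA from mice at 6 months of age, measured on 4 Affymetrix oligonucleotide arrays. Of 36 genes in the list, 32 had a probe set annotated to that gene alone, out of 8251 genes named in this way on the array, and the brightest such probe set over all 4 arrays stood for each. 2 arrays came from non-transgenic mice, described by the submitters as wild-type, and 2 from transgenic mice with moderate overexpression of serum response factor (SRF) in the heart only. The sources used here do not give the promoter that drives the transgene, the strain, or whether RNA was pooled. Nothing in the labels ties each sample to an animal of its own, so the p-values reflect how far these samples differ, which may be technical variation. Psme2 (on probe sets shared with Psme2b), Stat2, Oasl2 and Bst2 were not analysed here, and neither was Srf itself.

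MHC class I molecules carry peptides cut in the cytosol to the cell surface, where cytotoxic T cells read them. Interferons, the cytokines of antiviral defence, act through receptors on nearly every cell, and JAK kinases then activate STAT and IRF factors. These factors bind short promoter elements, the interferon-stimulated response element (ISRE) and the gamma-activated site (GAS), and raise antiviral effectors, GTPases, chemokines and the class I pathway together. In heart muscle, class I levels on cardiomyocytes are low at rest, and endothelial cells, fibroblasts and resident macrophages express the pathway too.

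The promoters were read to show what the members share in sequence. RefSeq windows on GRCm38.p6, from 250 bases before to 50 bases after an annotated start, were found for 29 of the 32 measured genes (35 windows). An ISRE was searched on both strands as GAAA followed, after any 2 bases, by GAAA, and a GAS as TTCNNNGAA, which reads alike on both strands. The ISRE letters stood in windows of 11 of the 29 genes (37.9%, against 3.99% of 27025 genes with windows in the table), and the GAS letters in those of 8 genes (27.6%, against 9.55%). The CArG box, the element bound by SRF, was matched in 0 of the 35 windows, against 1.63% of all 32851 windows. Such matches describe letters only, and no match says nothing about the factor. Igtp and Irf8 are printed because their differences passed the test. The Igtp window (chr11:58199306-58199605, plus strand) has a GAS and an ISRE, both in capitals, and the ISRE begins 34 bases before the start.
Igtp: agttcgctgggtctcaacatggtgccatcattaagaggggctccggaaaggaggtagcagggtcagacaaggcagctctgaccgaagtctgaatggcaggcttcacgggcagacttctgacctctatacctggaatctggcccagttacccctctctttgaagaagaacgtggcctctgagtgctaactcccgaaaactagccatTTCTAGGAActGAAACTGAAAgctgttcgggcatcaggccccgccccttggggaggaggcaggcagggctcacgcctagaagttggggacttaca
The first Irf8 window (chr8:120736108-120736407, plus strand) has 2 GAS matches, in capitals, and no ISRE match.
Irf8: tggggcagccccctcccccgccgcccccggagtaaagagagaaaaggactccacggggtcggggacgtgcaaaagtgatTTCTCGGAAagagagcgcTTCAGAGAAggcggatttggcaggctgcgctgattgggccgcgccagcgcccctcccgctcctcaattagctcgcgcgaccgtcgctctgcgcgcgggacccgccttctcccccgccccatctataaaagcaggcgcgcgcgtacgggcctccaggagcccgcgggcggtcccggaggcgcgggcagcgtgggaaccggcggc
The ISRE pattern fixes the GAAA letters of every match, so likeness among matches comes from the search. The remaining sequences give an ISRE match (capitals) of some members whose signals did not pass the test or were too dim for it, read along each gene's own strand. They lie at chr2:122147538-122147567, plus strand (B2m), chr14:55578493-55578522, plus strand (Psme1), chr4:156200871-156200900, minus strand (Isg15), chr19:34640794-34640823, plus strand (Ifit1), chr3:142620594-142620623, plus strand (Gbp2) and chr11:48871425-48871454, minus strand (Irgm1).
B2m: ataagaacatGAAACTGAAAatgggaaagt
Psme1: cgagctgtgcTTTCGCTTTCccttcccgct
Isg15: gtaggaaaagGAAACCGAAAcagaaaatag
Ifit1: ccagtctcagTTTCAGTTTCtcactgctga
Gbp2: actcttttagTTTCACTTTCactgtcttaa
Irgm1: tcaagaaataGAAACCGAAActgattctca
Where GAAA runs lie side by side, as in Isg15, matches overlap each other, and in Ifitm3 an ISRE overlaps a GAS.

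Few genes of the module differed between transgenic and non-transgenic ventricle. Irf8, a transcription factor of macrophages, dendritic cells and B cells, rose 1.94-fold, and Igtp, a GTPase that interferon-gamma induces, fell 2.08-fold. The other 23 genes tested did not pass, among them every tested gene of class I chains, immunoproteasome, peptide loading and antiviral effectors. Testing used limma on log2(signal + 9) over all 7453 probe sets left after the dimmest were removed, with Benjamini-Hochberg adjustment and a threshold of 0.05; 25 of the 32 genes were bright enough to enter, and 7 were not. The 2 calls are 8% of the 25 genes, and 7.93% of all probe sets tested were called (303 higher and 288 lower, or 397 and 197 after median centring), so the module's share was near that of the array as a whole. Groups were free of overlap in 9 of these 25 genes (36%), against 55.9% of all probe sets tested. An unadjusted p below 0.05 was seen in 3 of the 25 (12%; Irf8, Igtp and Tapbp), against 24.2% overall. On the log2 scale the median difference was 0.016 in the module and -0.0092 over all probe sets, and the median size without sign was 0.13 against 0.23. The 95% intervals of 22 of the 25 genes lay within a 2-fold change in either direction, as did those of 6130 of all 7453 probe sets.

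**Figure D1:**
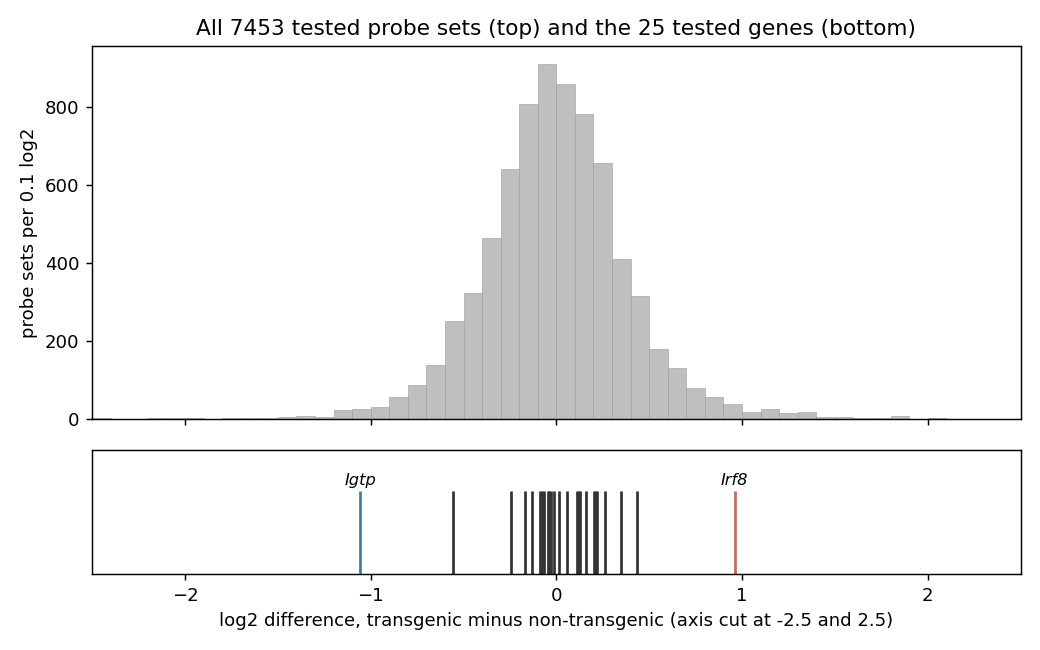
Histogram of log2 differences (transgenic minus non-transgenic) of all 7453 tested probe sets, above vertical lines for the 25 tested genes of the module on the same axis. Igtp at -1.06 and Irf8 at 0.96 stand at the edges, and the other lines lie between -0.56 and 0.43.

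Of the array as a whole, median signals ran from 49.0 to 53.9, log2 signals correlated at 0.973 and 0.981 within the groups and at 0.961 to 0.964 across them (over probe sets, which are not independent replicates), and no arrays were identical. Cardiomyocyte markers were bright in all 4, with a summed signal of 7 genes of 66881 and 65604 in non-transgenic and 50635 and 51884 in transgenic ventricle; all 7 were lower without overlap on the transgenic arrays, and 5 of them fell. The transgenic arrays had a higher summed signal of 7 fibroblast markers (9123 and 8708, against 5924 and 5676). Of these, 6 were higher, and Pdgfra was lower without overlap (332 and 298, against 523 and 391; log2 difference -0.51). Markers of hepatocytes summed to 2107 and 3874 in the non-transgenic samples (7 genes), whose label names ventricle alone, against 131 and 159 in the transgenic ones. Fewer cells of a type and less RNA per cell cannot be told apart in tissue RNA. What part these marker differences have in the members' results was not tested. Precision throughout is limited by having 2 arrays per group. When an array was left out, its group had 1 array, which was assumed to vary like the other group; the spread then rested on 1 residual degree of freedom and the variance model, so the p-values of such fits are given as values that show how calls move, not as tests of stability.

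The class I heavy chains and their light chain did not pass the test. H2-K1, a classical heavy chain, gave signals of 2172 and 2517 in non-transgenic ventricle and 2356 and 2374 in transgenic ventricle, with the latter inside the former. H2-D1, the other classical heavy chain measured, gave 1865 and 2041 against 2094 and 2169, which did not overlap but differed by only 0.13 ± 0.08 (log2, SE; adjusted p = 0.381). B2m, the light chain that all class I heavy chains need to reach the surface, gave 1993 and 2623 against 3020 and 2489, with overlapping groups and a log2 difference of 0.26 ± 0.15 (adjusted p = 0.319). Single arrays moved it: the B2m difference was 0.064 without non-transgenic replicate 1, 0.46 (adjusted p = 0.0959) without non-transgenic replicate 2, 0.12 without transgenic replicate 1 and 0.40 without transgenic replicate 2. The interval for H2-K1 ran from -0.19 to 0.23 and that for B2m from -0.082 to 0.60. Further probe sets of H2-D1 gave 0.25 (adjusted p = 0.104) and 0.021, and those of H2-K1 gave 0.18 and -0.036. Class I genes are near copies of each other, and most of these probe sets carry the manufacturer's mark for a family of like transcripts, so their signals can mix class I genes.

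The immunoproteasome exchanges the catalytic beta subunits of the standard proteasome for interferon-induced ones, which changes the peptides it cuts. Psmb8 gave 242 and 326 in non-transgenic and 271 and 285 in transgenic ventricle, and Psmb9 gave 131 and 146.5 against 146 and 124. Psmb10, the third induced subunit, gave 666 and 697 against 633 and 649, a pair of ranges that did not overlap at a log2 difference of -0.087 ± 0.095 (adjusted p = 0.628). Psme1, the alpha subunit of the PA28 activator that opens the proteasome's end, gave 849.7 and 1077.5 against 896 and 809. The 4 differences lay between -0.17 and -0.015, and those of Psmb8 and Psmb9 turned positive (0.065 and 0.040) under median centring of the arrays. The standard subunits that they replace did not pass either: log2 differences were 0.016 for Psmb5, 0.26 for Psmb6 (779 and 772 against 934 and 925; adjusted p = 0.129) and 0.026 for Psmb7. A second, dimmer probe set of Psmb5 fell (117 and 102 against 57.1 and 64.1; log2 difference -0.77, adjusted p = 0.0492).

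Peptide transport into the endoplasmic reticulum had the member nearest to the threshold after the called genes. Tapbp, tapasin, which holds class I molecules to the transporter while they are loaded, gave 316 and 342 in non-transgenic and 428.5 and 411.5 in transgenic ventricle. The groups did not overlap, and the log2 difference was 0.35 ± 0.11 (interval 0.078 to 0.61; unadjusted p = 0.0185, adjusted p = 0.119). Its other probe sets disagreed: one gave 241 and 242 against 269 and 327 (0.29), and one gave 180 and 166 against 154 and 167 (-0.10). Tap1 and Tap2 pair to form the transporter. Tap1 gave 102 and 152 against 145 and 126, and Tap2 gave 75.7 and 86.8 against 102 and 87.3, with log2 differences of 0.11 ± 0.21 and 0.20 ± 0.18. Psmb9, Tap1, Psmb8 and Tap2 follow each other directly on chromosome 17 in the RefSeq annotation, and none of the 4 passed.

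At the receptors, Ifngr1, the ligand-binding chain for interferon-gamma, gave 97.0 and 131 in non-transgenic and 80.0 and 140.5 in transgenic ventricle. Ifnar1, a chain of the type I interferon receptor, gave 78.8 and 64.1 against 66.1 and 52.1. In both genes the arrays of the groups interleaved, and the intervals were wide (-0.72 to 0.57 and -0.75 to 0.27 on the log2 scale). Ligand RNA was dim: Ifng gave 1.5 and 1.7 against 0.3 and 0.5, and the other 3 interferon genes measured (Ifnb1, Ifna2 and Ifna4) lay between 3.4 and 26.9 over all arrays, below the cutoff for testing.

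Among the transcription factors, Irf8 gave 60.1 and 53.2 in non-transgenic and 123 and 114 in transgenic ventricle. Both transgenic arrays lay above both non-transgenic ones, with a log2 difference of 0.96 ± 0.18 (adjusted p = 0.0232; 4.07% of all probe sets were called higher). The adjusted p stayed below 0.05 without non-transgenic replicate 1 (0.0398) and was above it without non-transgenic replicate 2, transgenic replicate 1 or transgenic replicate 2 (0.0606, 0.121 and 0.0723), as well as with dim probe sets kept in (0.0622) and without a trend of variance on signal (0.0596). Over all alternatives the adjusted p of Irf8 ran from 0.0131 to 0.121. Macrophage markers were higher in transgenic ventricle too, as was the fibroblast sum given above. All 10 macrophage markers tested, of 13 measured, were higher and 5 of them rose. Of the 3 too dim to test, Adgre1 was higher without overlap, and Fcgr3 and Aif1 overlapped between groups. The summed signal of the 13 was 2422 and 2729 against 4054 and 4061. Class II genes and dendritic cell markers summed to 1742 and 1971 against 3139 and 3096, with Cd74 and H2-Aa the 2 of 7 that rose. Both are class II genes, and they made up most of that sum on every array. The class II genes H2-Ab1 (133 and 220 against 207 and 209) and H2-Eb1 (165 and 64.3 against 136 and 149) overlapped between groups and did not pass. The dendritic cell markers of the list did not rise. Log2 differences were 0.14 for Itgax and 0.032 for Xcr1. Flt3 was lower without overlap (146 and 176.5 against 95.9 and 137, log2 difference -0.45). B cell markers, whose cells also use Irf8, summed to 217 and 289 against 152 and 151. The part of these cells in the difference of Irf8 was not tested.

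The remaining factors did not pass. Irf1, an early target of interferon-gamma, gave 136 and 199.9 against 197 and 191, with the transgenic pair inside the non-transgenic range. Irf7, which amplifies type I interferon, gave 68.6 and 56.0 against 47.7 and 32.1, without overlap (-0.56 ± 0.25, adjusted p = 0.230), while its second probe set gave 50.2 and 40.1 against 51.0 and 41.0 (0.023). Stat3, which responds mainly to the interleukin-6 family, gave 673 and 709.9 against 688 and 668. Irf9, the DNA-binding subunit of the ISGF3 complex, gave 144 and 134 against 136 and 132. The differences of Stat3 and Irf9 were -0.028 ± 0.095 and -0.044 ± 0.15, and both were positive after median centring. A second probe set of Stat3 went the other way without overlap (430 and 492 against 536.5 and 547; 0.23 ± 0.11, unadjusted p = 0.0789, adjusted p = 0.260).

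Antiviral effectors did not pass the test or were dim. Isg15, a ubiquitin-like protein joined to other proteins after interferon, gave 79.0 and 119 against 99.7 and 77.4, so that its interval ran from -0.69 to 0.42. Ifi35, an interferon-induced leucine zipper protein, gave 132 and 113 against 128 and 139. Ifitm3, which blocks entry of enveloped viruses at endosomes, gave 1320 and 1552 against 1402.5 and 1577, and Ly6e, a surface protein held by a lipid anchor, gave 3187 and 3284 against 3105 and 3081. These bright genes had the narrowest limits of the group: -0.20 to 0.31 for Ifitm3 and -0.22 to 0.090 for Ly6e, whose sign turned under median centring and quantile normalization. Ifit1, Ifit2 and Ifit3, which bind foreign RNA or its partners, and Usp18, which removes Isg15 and damps the type I receptor, were below the cutoff, with signals between 4.5 and 32.5 on every array. Ifit1 gave 14.3 and 4.5 against 16.4 and 18.5, and Usp18 gave 6.6 and 6.5 against 9.4 and 22.3, while Ifit2 and Ifit3 overlapped between groups. Log2 differences of these dim genes are not given, since values this low have no dependable order.

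The interferon-inducible GTPases take part in defence against intracellular pathogens. Igtp (Irgm3) gave 160.5 and 226 in non-transgenic and 103 and 73.4 in transgenic ventricle. Both transgenic arrays lay below both non-transgenic ones, and the log2 difference was -1.06 ± 0.23 (interval -1.59 to -0.52; adjusted p = 0.0360; 3.86% of all probe sets were called lower). The adjusted p stayed below 0.05 with either replicate 1 left out and was above it with either replicate 2 left out (0.112 for the non-transgenic array, 0.0870 for the transgenic array), with dim probe sets kept in (0.0855) and without the trend of variance (0.108). Its adjusted p ran from 0.0183 to 0.112 over the alternatives. Gbp3 gave 82.2 and 82.1 against 130 and 99.9 (0.43 ± 0.19, adjusted p = 0.212), which points the other way without passing. Gbp2, a guanylate-binding protein like Gbp3, gave 146 and 155 against 204 and 151.5, and Irgm1, a regulator of the same GTPase family as Igtp, gave 28.7 and 31.1 against 41.0 and 28.7. Ifi47 was below the cutoff (3.9 and 14.9 against 26.6 and 20.9).

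Genes of liver moved in the same direction as Igtp. H2-Q10, a class I molecule that the liver secretes, gave 134 and 178 against 58.3 and 51.6 and fell by 1.36 ± 0.20 (log2; adjusted p = 0.0113); it was the 1 called gene of 42 tested from a list of other pathway genes, against 7.93% of all probe sets, and 0 of the 42 rose in limma. An unadjusted p below 0.05 was seen in 9 of the 42 (5 higher and 4 lower), against 24.2% of all probe sets. Hepatocyte markers fell in 5 of 6 tested cases, and their sum was highest on non-transgenic replicate 2, as were Igtp and H2-Q10. Within the transgenic pair the order differed: the hepatocyte sum was 131 and 159, while Igtp gave 103 and 73.4 and H2-Q10 gave 58.3 and 51.6. A lower signal on the transgenic arrays was not particular to liver genes, since cardiomyocyte markers and the B cell sum were lower there too. A peak on non-transgenic replicate 2 was not particular to these genes either. The sum of all 32 measured genes of the module was highest there too (14885 and 16999 against 16759 and 16186). So were single members such as H2-K1, Psme1 and Isg15. The GTPases Iigp1 (273 and 489.5 against 248 and 150.3) and Irgm2 (202 and 279 against 187 and 145) had the same order of arrays as Igtp. Neither passed (-0.89 ± 0.31, adjusted p = 0.136, and -0.51 ± 0.20, adjusted p = 0.177). Both were named after their values were seen, so nothing is read from the shared order. Gbp7, a GTPase of the same list, gave 90.3 and 145 against 139 and 92.7, with overlap. Gbp2, Gbp3 and Irgm1 did not have that order either. The Iigp1 difference moved with single arrays: it was -1.30 (adjusted p = 0.0494) without non-transgenic replicate 1 and -1.23 (0.0462) without transgenic replicate 1, but -0.48 (0.357) without non-transgenic replicate 2 and -0.55 (0.335) without transgenic replicate 2. H2-Q10 lost its call without the variance trend (0.0542). A second probe set of Iigp1 gave 94.9 and 154 against 123 and 59.6, with overlap. The part of liver RNA in the fall of Igtp and H2-Q10 was not tested.

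**Figure D2:**
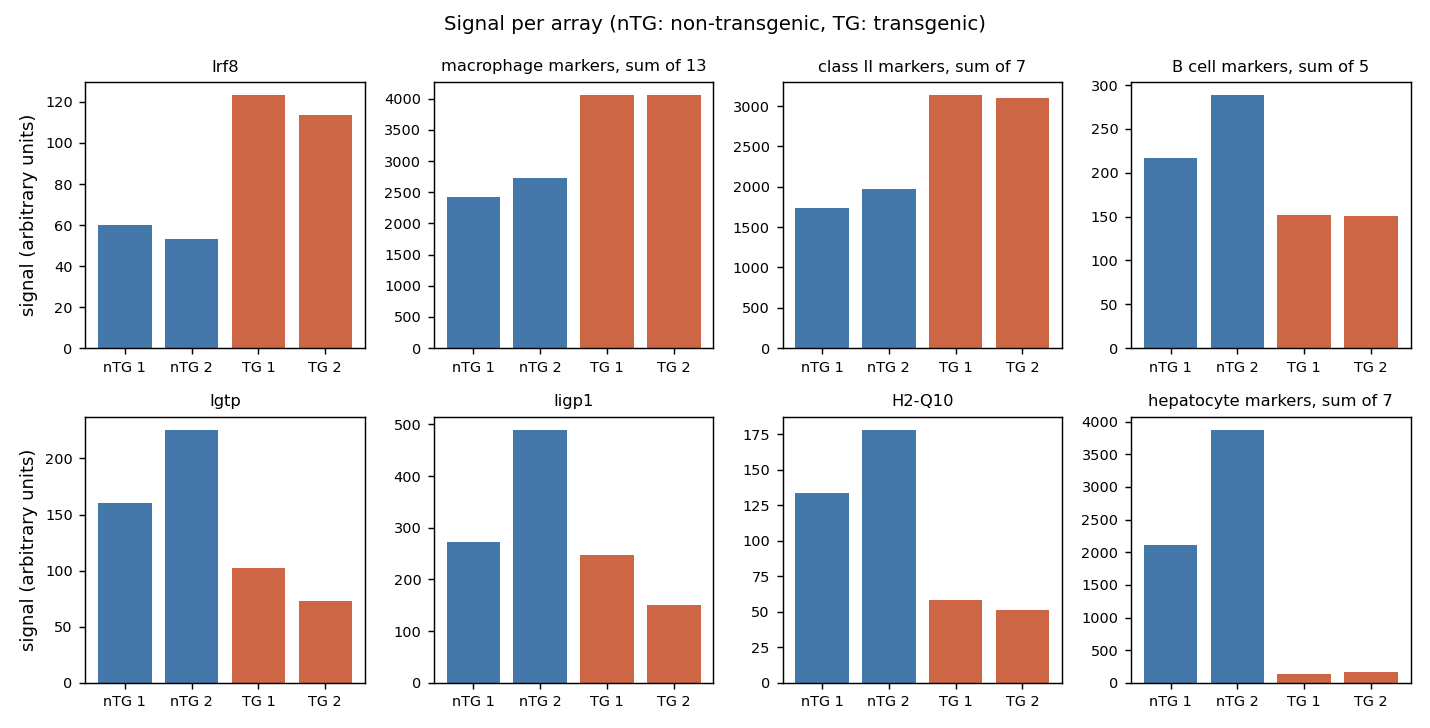
Bars give the signal on each of the 4 arrays for Irf8, Igtp, Iigp1 and H2-Q10 and the summed signal of 4 marker lists. The lists are macrophage, class II (which includes the dendritic cell markers), B cell and hepatocyte. Every axis starts at 0. Irf8 and the macrophage sum (2422 to 4061) are higher on the transgenic arrays. Igtp, H2-Q10, the B cell sum (151 to 289) and the hepatocyte sum (131 to 3874) are lower on them.

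The chemokines that draw T cells, Cxcl9 and Cxcl10, were below the cutoff. Cxcl9 gave 10.1 and 17.1 against 2.0 and 3.8, and Cxcl10 gave 8.7 and 3.5 against 1.1 and 9.6. T and NK cell markers were dim as well: 9 of 10 were below the cutoff, and the sum of the 10 was 167 and 146 against 174 and 138.

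**Figure D3:**
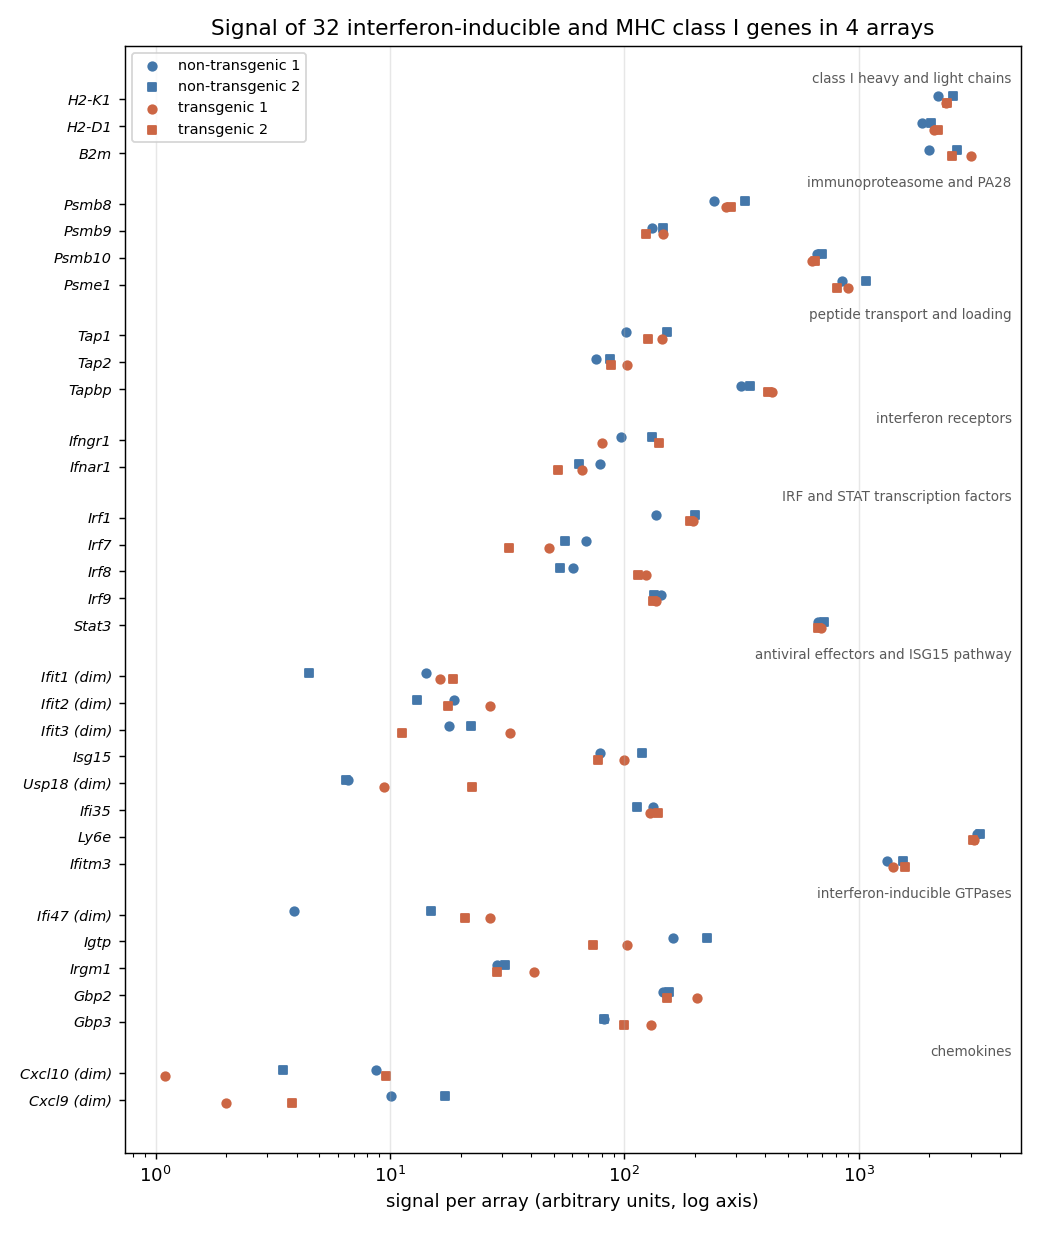
Points give the signal of each of the 32 measured genes on each array (log axis), in rows grouped by role; genes marked dim were below the cutoff for testing, and rows are not to be compared with each other because probe sets differ in brightness. The groups separate widely for Irf8 (53.2 to 60.1 against 114 to 123) and Igtp (160.5 to 226 against 73.4 to 103).

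**Figure D4:**
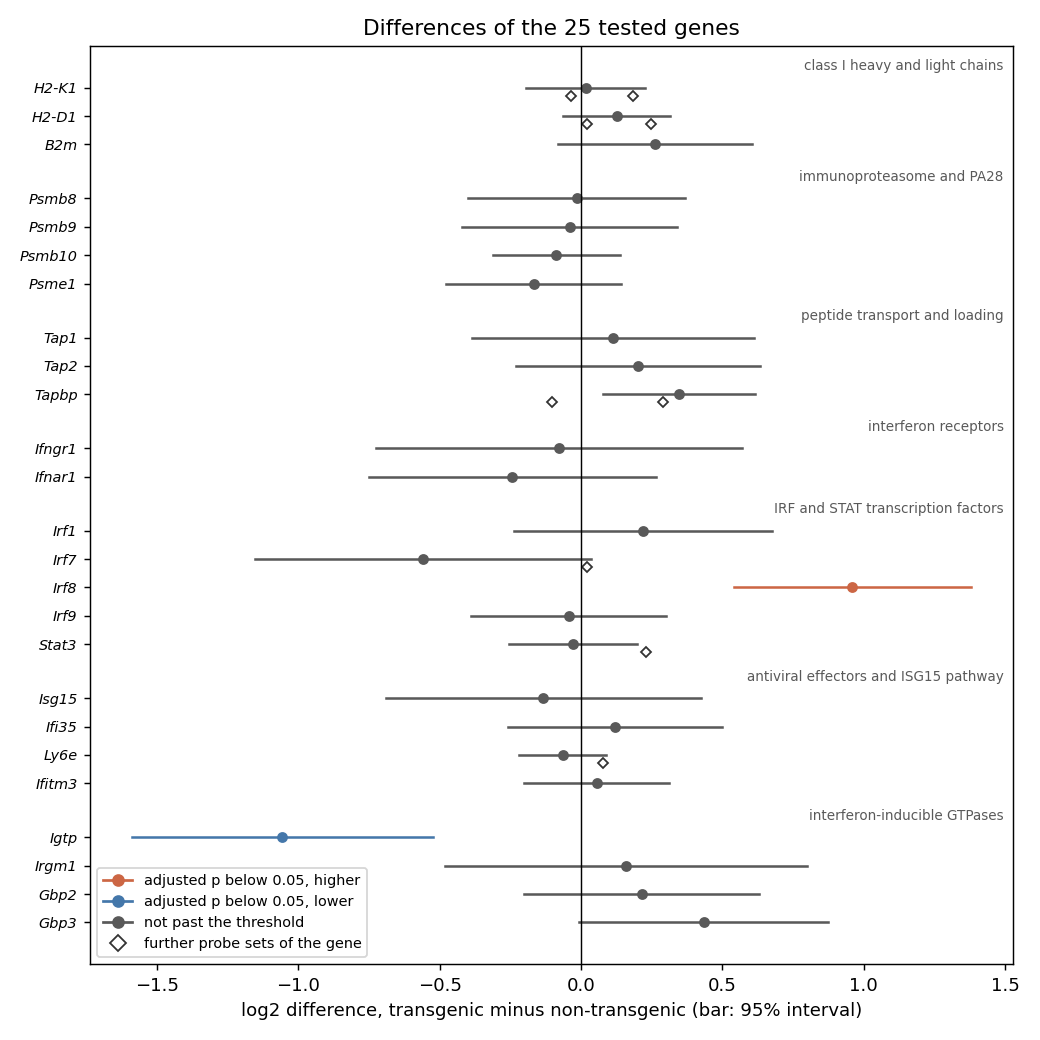
Dots and bars give the log2 difference of each of the 25 tested genes with its 95% interval from limma, and open diamonds the further probe sets of the same gene that were tested. Irf8 (0.96) and Igtp (-1.06) are coloured as past the threshold; the bars of 22 genes stay within -1 and 1.

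By promoter match, the differences ran in both directions. The 8 tested genes with an ISRE match had differences from -1.06 (Igtp) to 0.43 (Gbp3) with a median of 0.11, and 0 rose and 1 fell (Igtp was also the 1 with an unadjusted p below 0.05). The 7 with a GAS match ran from -1.06 to 0.96 with a median of 0.055, and held both called genes. With 7 and 8 genes, and 7.93% of all probe sets called, nothing is read from where the 2 calls fall. Igtp and Ifitm3 have both elements, and Ifitm3 had a log2 difference of 0.055 ± 0.11.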

How the data were processed

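Per the labels' protocols, column-purified total RNA carried a biotin label and was processed as Affymetrix prescribes. The deposited values are 1 linear signal intensity per probe set and array, a scale read from the values; the sources used here give neither its software nor its scaling. The mean of each array without its highest and lowest 2% was 150.1, so changes shared by most RNA are not visible. No detection calls were used. Of 12488 probe sets 66 were controls. Symbols came from the platform annotation (10833 single, 396 several, 1193 not listed; 0 changed against RefSeq gene numbers).

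Signals were taken as log2(signal + 9), 9 being the rounded 20th percentile; on this scale fold changes of dim genes come out too small. The lowest 40% by mean log2 value were left out. Groups from the labels were compared with lmFit and eBayes (variance trend) in limma (version 3.58.1; R 4.3.3) by two-sided tests adjusted after Benjamini and Hochberg; the prior carried 5.05 degrees of freedom and the residual 2. Errors are moderated standard errors. The fit was also run on data simulated from its own variance model, which cannot show whether that model holds for these arrays. Members and lists were chosen with earlier results of these data known. Per-array values were given for called members and for up to 4 per role with the smallest p; other pathway genes past the threshold and the standard proteasome subunits were named, and others only where said. Stat3 and the dim genes were added to complete the account. Alternatives were other pseudocounts (1 and 32), scalings, filters, variance models, a threshold of 0.10, a replicate block, second probe sets, and leaving out each array.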

Additional observations from a re-analysis of the deposited data

How the results depend on the processing

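With 4 arrays, calls depend on the variance model and on single arrays. The module had 1 gene higher (Irf8) and 1 lower (Igtp) under both other pseudocounts, both scalings and the stricter filter. The robust variance model and the replicate block gave the same counts. So did the threshold of 0.10, which cannot remove a call, and the second probe sets. Irf8 and Igtp have only 1 probe set each, so that last setting could not change their calls. Without the filter on dim probe sets, and without the variance trend, 0 rose and 0 fell in limma (3 and 5 with an unadjusted p below 0.05). Leaving out an array gave 0 to 1 higher and 0 to 1 lower. Over all probe sets the counts were 172 and 157 without the filter, 44 and 34 without the trend, 477 and 484 at 0.10, and 125 to 232 higher and 158 to 191 lower without an array. Median centring gave 397 and 197, a larger share of higher calls.

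Of other pathway genes, 2 rose after median centring, 1 rose and 2 fell with the lowest 60% left out, 3 rose and 2 fell at 0.10, 2 fell with the replicate block and 0 fell without the trend; leaving out an array gave 0 higher and 1 to 3 lower. Deviations from the group means were nearly uncorrelated between samples of the same replicate number (-0.0604). That value cannot show whether samples were paired in the laboratory, and the sample titles do not say. The replicate block is given only here, and it called 348 and 345 probe sets.

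Directions of 13 tested members turned under some setting, all of them uncalled. Median centring gave Psmb8 0.065, Psmb9 0.040, Ifngr1 0.0027, Irf9 0.036, Stat3 0.052 and Ly6e 0.015, and quantile normalization gave Ly6e 0.013. Without single arrays the log2 difference ran from -0.090 to 0.12 for H2-K1, -0.16 to 0.38 for Tap1, -0.044 to 0.48 for Irf1, -0.092 to 0.0044 for Irf9, -0.061 to 0.17 for Ifitm3, -0.22 to 0.19 for Psmb8, -0.15 to 0.073 for Psmb9, -0.34 to 0.0034 for Psme1, -0.45 to 0.30 for Ifngr1, -0.066 to 0.010 for Stat3, -0.40 to 0.14 for Isg15, -0.045 to 0.36 for Irgm1 and, of the constitutive proteasome genes outside the module, -0.14 to 0.17 for Psmb5 and -0.010 to 0.063 for Psmb7. Irf8 ran from 0.88 to 1.04 and Igtp from -1.29 to -0.82 without single arrays, and neither changed direction under any alternative listed here. The cause of these changes was not tested.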

Other observations

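Upstream of the module, other receptor and factor genes lay nearer the threshold than most members. These were named after their values were seen, because each passed under some alternative. Irf5, a factor of myeloid cells and B cells, gave 81.8 and 75.4 in non-transgenic and 128 and 129 in transgenic ventricle (log2 difference 0.65 ± 0.16, adjusted p = 0.0569; 0.0929 to 0.222 without single arrays). Tyk2, a kinase of the type I receptor, gave 51.2 and 46.6 against 78.7 and 98.7 (0.75 ± 0.20, adjusted p = 0.0762). Ifnar2, the second chain of that receptor, gave 50 and 42.3 against 100.5 and 72.8 (0.78 ± 0.23, adjusted p = 0.0885), but its other probe set gave 66.7 and 63.4 against 58.1 and 48.9 (-0.25). Ifngr2, the signalling chain of the interferon-gamma receptor, gave 598 and 509.9 against 419.8 and 372.5 (-0.47 ± 0.13, adjusted p = 0.0726). Stat5a gave 417 and 441.5 against 390 and 256 (-0.43 ± 0.19, adjusted p = 0.225), and single arrays moved it from -0.72 (0.0433) without transgenic replicate 1, the 1 fit in which it passed, to -0.14 (0.716) without transgenic replicate 2. The second probe set of Stat5a gave -0.072 (adjusted p = 0.789).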
